A study of Mus musculus with 24 samples.

Results

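The contractile genes of the myofibroblast examined here were Acta2, Tagln, Cnn1, Myl9, Tpm1, Tpm2, Actn1, Myh9, Vcl and Cald1, 10 of the 22225 protein-coding genes of the mouse annotation on build mm9. They were chosen by name, and each was read over its gene body with 10 kb on each side, in all 17 peak lists of a ChIP-seq study of the homeobox factor PRRX1 in cultured mouse fibroblasts. ChIP-seq maps where a protein or a modified histone sits on DNA. The lists come from mouse embryonic fibroblasts (MEF, C57BL/6, taken between embryonic days 10 and 13), fibroblasts that MMTV-PyMT mice on FVB/NJ carry in their mammary tumours (labelled MMTV_CAF, called tumour fibroblasts here), and fibroblasts of dorsal skin wounds of C57BL/6 mice at day 10 (wound fibroblasts). Every line, the wild-type (WT) ones included, carried E6 and E7 of a papillomavirus, which immortalise cells.

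In each of the 3 types, WT cells carried a control guide, and SG cells had Prrx1 deleted by CRISPR with a guide RNA. A further MEF line is labelled KI. The labels do not spell this out, and it was read as the line from mice with lacZ knocked into Prrx1 that the study describes. KI and SG are both called deleted here. There were 7 lists of H3K27ac, an acetyl mark of active promoters and enhancers, 7 lists of H3K4me3, a mark of promoters, and 3 lists of PRRX1 in WT cells. Every group has 1 list, so no comparison could be tested, and all differences describe single lists. The tumour line also differs from the others in strain, so type and strain cannot be told apart.

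Myofibroblasts are fibroblasts that have taken on a contractile apparatus in wounds, fibrosis and tumour stroma. Acta2 encodes smooth muscle α-actin, the usual marker of the state. Around this actin, tropomyosins (Tpm1, Tpm2), caldesmon (Cald1), calponin (Cnn1) and transgelin (Tagln) bind the filament, non-muscle myosin heavy chain IIA (Myh9) with regulatory light chains such as Myl9 pulls on it, and α-actinin (Actn1) and vinculin (Vcl) crosslink it and tie it to adhesions. Many such genes are driven by serum response factor (Srf) and its coactivators through a DNA element called the CArG box.

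The CArG box was searched in the 300 bases before each gene's annotated 5′ end, as CC, 6 bases that are each A or T, and GG. This pattern reads alike on both strands. It was found at 4 members, Tagln, Myl9, Vcl and Cald1, against 1.63% of all protein-coding genes. With exactly 1 G or C within the run of 6, the pattern was found at Acta2, which held 2 copies, and once more at Myl9, against 8.67% of all genes. The sequences are shown because Acta2 and Tagln carry the main differences below. Each is written 5′ to 3′ along its gene on mm9, with the element in capitals.
Acta2, first copy (chr19:34329918-34329967, minus strand, element starting 121 bases before the 5′ end): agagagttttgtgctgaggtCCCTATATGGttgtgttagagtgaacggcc
Acta2, second copy (chr19:34329868-34329917, minus strand, 71 bases before): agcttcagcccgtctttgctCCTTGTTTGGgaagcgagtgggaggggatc
Tagln (chr9:45744224-45744273, minus strand, 112 bases before): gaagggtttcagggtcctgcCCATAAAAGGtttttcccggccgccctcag
Myl9 (chr2:156601019-156601068, plus strand, 117 bases before): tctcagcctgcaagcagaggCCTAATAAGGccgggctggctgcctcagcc
Vcl (chr14:21748373-21748422, plus strand, 262 bases before): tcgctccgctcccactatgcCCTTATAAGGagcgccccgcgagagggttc
Cald1 (chr6:34548229-34548278, plus strand, 251 bases before): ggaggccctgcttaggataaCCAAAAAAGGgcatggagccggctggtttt

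The letters TAATTA, the homeodomain core that PRRX1-type factors are known to bind, were in none of the 10 members' 300 bases and in 5.72% of those of all genes, on either strand. These matches describe letters only, and no match says nothing of whether a factor binds.

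The lists differed in size and strength. There were 29325 to 61603 H3K27ac summits, 13125 to 29166 H3K4me3 regions and 3048 to 8000 PRRX1 summits per list, and the depth behind them is unknown. The KI lists were the shortest of each mark and weaker than those of WT MEF, with median −log10 p of 11.9 (H3K27ac) and 9.93 (H3K4me3) against 18.5 and 28.6. The median of KI was the lowest of the 7 lists for H3K27ac, and for H3K4me3 those of WT and SG tumour fibroblasts were lower still (7.51 and 8.72). The weakest PRRX1 summit of each list had a −log10 p of at most 3.05, and no H3K27ac summit lay below 5. Among PRRX1 summits at members the lowest was 4.20 (Cald1, WT wound fibroblasts). The guide or insertion could not be checked here, since peaks over Prrx1 itself do not show whether protein is made, and the gene kept an H3K4me3 region of 4558 to 15484 bp in every list. Of 8 fibroblast markers, 6 to 8 had H3K4me3 at a transcription start site (TSS) in each list. None of 4 leukocyte markers had it in any list. Of the 4 markers of committed smooth muscle, Myh11, Myocd and Des had none in any list, and Lmod1 had it in 4. Of 6 epithelial and 4 endothelial markers at most 1 each had it (Cdh1 and Kdr), and the Kdr region was broad in wound fibroblasts (5528 bp in WT and 6173 bp in SG).

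H3K4me3 is described first, as the width of the widest region over any annotated TSS of a gene. Regions over 4 kb are called broad here. The members stood among the widest regions of the WT lists. Their median percentile by width among all protein-coding genes was 97.1 in MEF, 95.8 in tumour fibroblasts and 98.1 in wound fibroblasts. Broad regions covered 6 of 10 members in WT MEF, against 5.02% of all genes, 9 of 10 in WT tumour fibroblasts, against 15.2%, and 7 of 10 in WT wound fibroblasts, against 4.83%. In the deleted lists they covered 3 members in MEF KI (1.48% of all genes), 6 in MEF SG (3.6%), 5 in tumour SG (12.8%) and 6 in wound SG (8.58%). Of 33 genes of a wider actomyosin and Srf list, 14, 22 and 14 had a broad region in WT MEF, tumour fibroblasts and wound fibroblasts. In MEF KI, MEF SG, tumour SG and wound SG they numbered 3, 9, 22 and 22. The shares of all genes include genes with no region at a TSS. A gene with more annotated TSSs has more places where a region can count, and Tpm1 has 21, Cald1 16 and Acta2, Tagln and Cnn1 have 1 each.

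**Figure D1:**
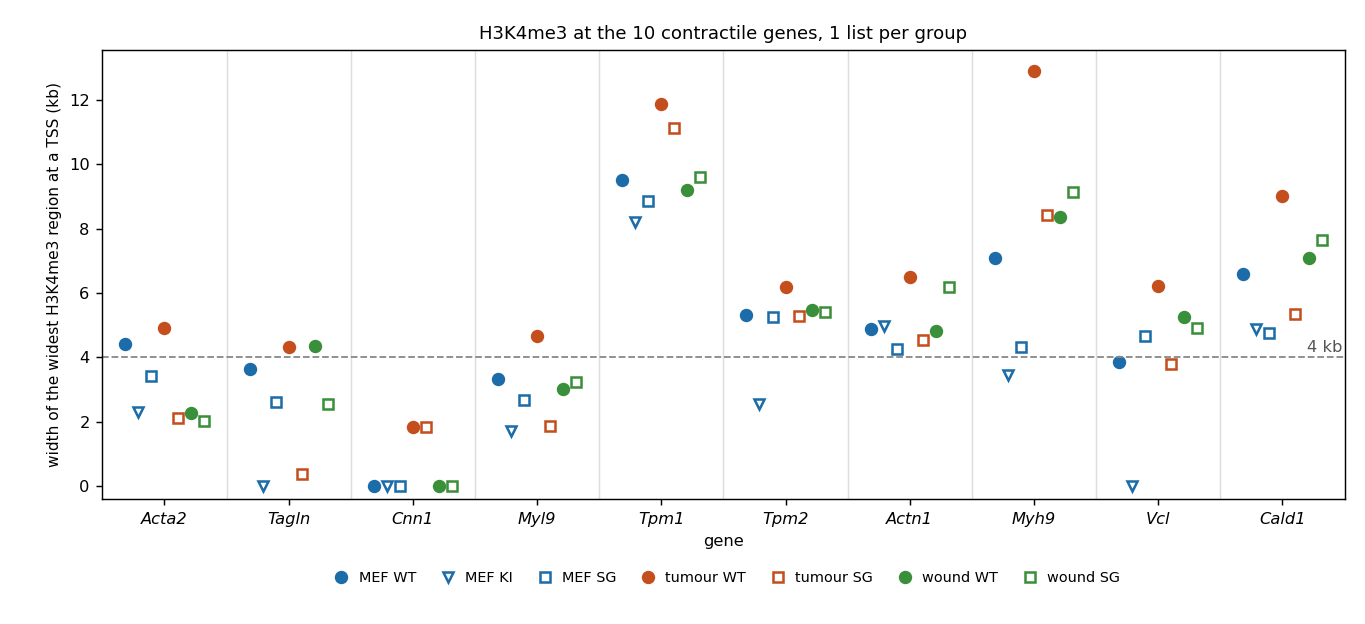
Width in kb (y axis) of the widest H3K4me3 region over a TSS for the 10 members (x axis), 1 point per list, with filled points for WT, open triangles for KI and open squares for SG, and 0 where no region lay at a TSS. Tpm1 was widest in 6 of the 7 lists and Myh9 in WT tumour fibroblasts (12901 bp), while Cnn1 had a region in the tumour lists only.

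Width was not shared evenly among the members. Tpm1 spanned 8207 to 11869 bp over the 7 lists, and Tpm2 2555 to 6187 bp. Cald1 spanned 4772 to 9025 bp and Actn1 4261 to 6489 bp. The regions of Acta2 and Tagln, with 1 annotated start each, reached 4905 and 4362 bp. Cnn1, a calponin used as a marker of differentiated smooth muscle, had no region at its TSS in MEF or wound fibroblasts, and one of 1834 bp (WT) and 1829 bp (SG) in tumour fibroblasts.

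The Acta2 region measured 4406 bp in WT MEF against 2299 bp in KI, with 3415 bp in MEF SG. It was 4905 bp in WT and 2126 bp in SG tumour fibroblasts, and 2288 bp in WT and 2028 bp in SG wound fibroblasts. The deleted list was thus narrower than its WT list in all 4 comparisons, but the wound WT region was already no wider than that of KI. Its enrichment over input at that region did not move the same way: 6.32-fold in WT MEF, 6.74-fold in KI and 5.68-fold in SG, 7.02-fold and 7.73-fold in WT and SG tumour fibroblasts, and 4.70-fold and 6.20-fold in WT and SG wound fibroblasts.

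For Tagln, which encodes transgelin, an early marker of smooth muscle differentiation, the widths were 3656 bp in WT MEF, no region in KI and 2617 bp in SG, then 4331 bp in WT and 370 bp in SG tumour fibroblasts, and 4362 bp in WT and 2564 bp in SG wound fibroblasts. The tumour SG region was the narrowest of any member, with a fold enrichment of 2.67 against 6.21 in WT. Myl9 went from 4664 to 1870 bp in the same pair of lists. In MEF it measured 3327 bp (WT), 1708 bp (KI) and 2685 bp (SG), and in wound fibroblasts 3023 and 3246 bp.

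A change past 1.5-fold between a deleted list and the WT list of its type is called here, over genes with a region in both lists. In tumour fibroblasts, 6 of 10 members were narrower in SG (Acta2, Tagln, Myl9, Myh9, Vcl and Cald1), against 5.86% of all genes, and 0 were wider, against 4.97%. The members' median log2 width ratio was -0.66 and that of all genes -0.05, and 9 of 10 members lay below the median of all genes. Of 27 genes of the wider actomyosin and Srf list (33 genes on the annotation) with a region in both lists, 2 were narrower and 0 wider, with a median of -0.16. Fold enrichment went the other way at most members, higher in SG at 8 of 10, with a median log2 ratio of 0.25 against 0.15 for all genes. No member's region was absent from the SG list, against 2.67% of all genes.

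In MEF KI, 4 of 7 members with a region in both lists were narrower (Acta2, Myl9, Tpm2 and Myh9), against 25.1% of all genes, and 0 were wider (0.524%). The regions of Tagln and Vcl, 2 of 9, were absent from the KI list, against 22.6% of all genes, a share near the background. In MEF SG, Myh9 alone of 9 members was narrower (5.05%), 0 were wider (0.599%) and 0 regions were absent (4.03%). In wound SG, Tagln alone of 9 was narrower (1.73%), 0 were wider although 11.6% of all genes were, and 0 were absent (2.42%). The median log2 width ratio of all genes was -0.33 in KI, -0.09 in MEF SG and 0.18 in wound SG, and those of the members were -0.94, -0.31 and 0.06.

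Myh9, the heavy chain of non-muscle myosin IIA, had the widest range of widths in bp. They were 7088 bp in WT MEF against 3461 bp in KI, with 4322 bp in MEF SG, 12901 and 8428 bp in WT and SG tumour fibroblasts, and 8351 and 9131 bp in WT and SG wound fibroblasts. It was narrower in both MEF lists and in tumour fibroblasts, and not in wound fibroblasts. Cald1 measured 9025 bp in WT and 5360 bp in SG tumour fibroblasts, and Vcl 6210 and 3790 bp. In wound fibroblasts Cald1 measured 7086 and 7656 bp and Vcl 5266 and 4910 bp, changes below 1.5-fold.

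H3K27ac was summed over all summits in the window, in units of −log10 p as the authors' peak caller gave them, so that a sum grows with both the number of summits and their strength, and with the length of the window. Per 10 kb of window, WT MEF held 54.6 at Cald1, 52.1 at Myh9, 50.4 at Tpm1, 37.4 at Acta2, 28.2 at Tpm2, 26.8 at Cnn1, 26.7 at Myl9, 25.6 at Actn1, 23.2 at Tagln and 16.7 at Vcl. In WT tumour fibroblasts and WT wound fibroblasts the highest were Myh9 (74.9 and 52.8) and Tpm1 (72.7 and 50.8). All 10 members held at least 1 summit in every list except Tagln in tumour SG.

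**Figure D2:**
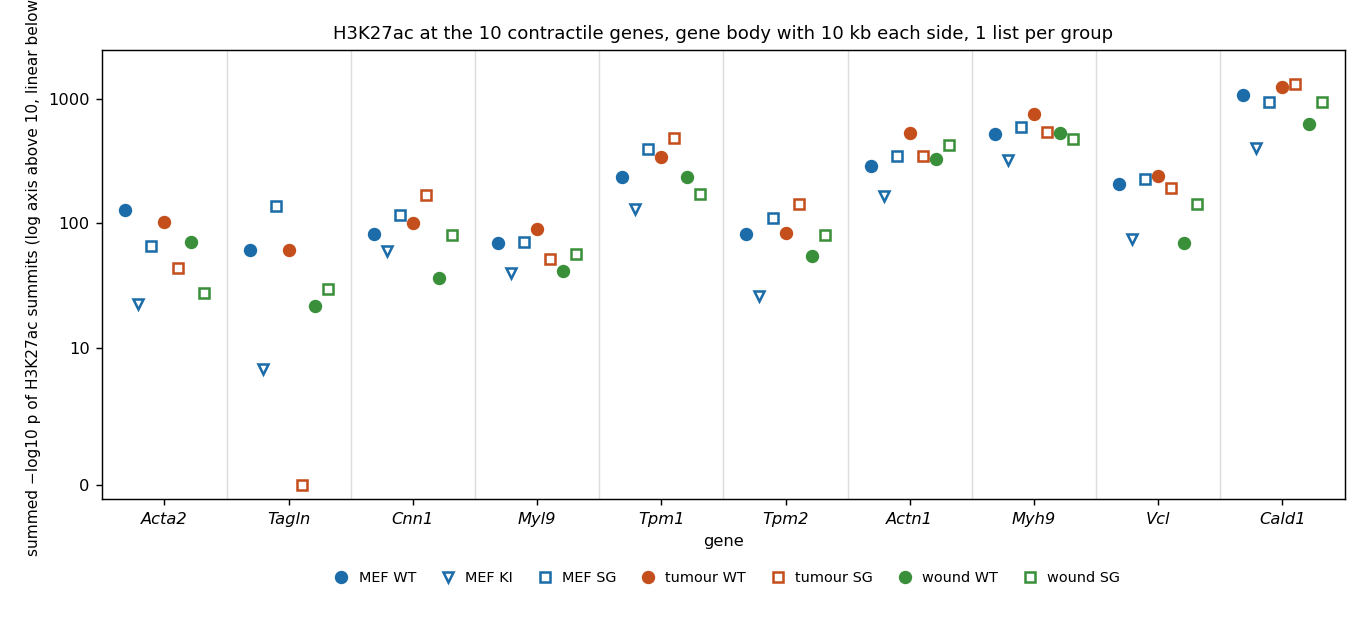
Summed −log10 p of H3K27ac summits (y axis, logarithmic above 10 and linear below) in the gene body with 10 kb each side for the 10 members (x axis), 1 point per list. Acta2 was below its WT list in all 4 deleted lists, and Tagln in tumour SG was at 0.

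Acta2 stood apart from the other members. Its sums were 128 in WT MEF, 22.4 in KI and 65.4 in SG, 103 in WT and 44.1 in SG tumour fibroblasts, and 71.3 in WT and 27.4 in SG wound fibroblasts. The 3 WT sums were all above the 4 deleted sums. The log2 ratios of deleted over WT, with 5 added to each sum, were -2.28 in KI and, in SG, -0.92 in MEF, -1.13 in tumour and -1.24 in wound fibroblasts, each lower past 1.5-fold. KI and MEF SG share 1 WT list. No other member was lower in all 4, and of 13112 genes with a value in all 4 comparisons only 9 were, which is 0.0686%.

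Because whole lists shifted, the same was read relative to the median of all genes, which was -1.62 in KI and, in SG, 0.48 in MEF, 0.25 in tumour and 0.59 in wound fibroblasts. Acta2 then lay at -0.67, -1.40, -1.39 and -1.83, again lower past 1.5-fold in all 4, as were 23 genes in all, or 0.175%. Centring was planned for the counts of members and was carried over to this count across 4 comparisons after the data had been seen. Among all genes, Acta2 stood at percentile 84.8 by summed H3K27ac in WT MEF, 69.5 in KI and 53.7 in SG, at 71.7 and 45.5 in WT and SG tumour fibroblasts, and at 79.8 and 45.8 in WT and SG wound fibroblasts. Summed H3K27ac of the marker lists moved as well. The 8 fibroblast markers held 1073 in WT MEF, 474 in KI and 1225 in SG, 2448 and 2183 in WT and SG tumour fibroblasts, and 1052 and 798 in WT and SG wound fibroblasts, where Col1a2, a collagen chain, went from 283 to 56.1 and Pdgfrb, a growth factor receptor of mesenchymal cells, from 151 to 51.4. The 4 endothelial markers held 67.7 in WT MEF, 63.0 in KI and 155 in SG, then 116 and 268 in tumour and 145 and 286 in wound fibroblasts. The 6 epithelial markers held 98.9, 7.81 and 256 in MEF, 147 and 205 in tumour and 54.6 and 85.5 in wound fibroblasts, the 4 leukocyte markers 150, 53.7 and 196, then 213 and 242, then 130 and 213, and the 4 smooth muscle markers 147, 40.2 and 238, then 152 and 242, then 41.7 and 94.9. The sums of these other lists were thus higher in each SG list than in its WT list, as was the median of all genes, while Acta2 was lower. Single genes carried some of these sums. Cd68 made up the whole leukocyte sum in the MEF lists, and Lmod1 held 138 of the 147 at smooth muscle markers in WT MEF. Not every marker rose. Tek went from 36.7 to 0 in MEF SG and from 11.1 to 0 in tumour SG. In tumour SG, Cdh1 went from 67.1 to 19.4 and Myocd from 24.2 to 0, and in wound SG Pecam1 went from 29.5 to 13.4. Pecam1, Cdh5, Tek, Epcam, Krt8, Krt18, Krt5 and Krt14 had no H3K4me3 at a TSS in any list. The part of other cell types in the differences at the members was not tested.

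The Acta2 result depended on the window. With the gene body alone, Acta2 was lower in 3 of 4 comparisons, not in tumour fibroblasts, and with 50 kb on each side in 1 of 4, MEF KI.

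The summits behind the sums at Acta2 were few. WT MEF had 4 summits, the highest (−log10 p of 84.8) 0.69 kb into the gene, others 3.12 and 3.70 kb into it and one 7.58 kb upstream. KI had 1 summit, of 22.4, 0.20 kb upstream of the 5′ end, and MEF SG had 2, of 43.5 at 0.21 kb upstream and of 21.9 at 2.81 kb inside. WT tumour fibroblasts had 4, up to 47.6 and 0.29 kb upstream, and its SG list had 2, of 35.4 at 0.50 kb inside and of 8.74 at 7.59 kb upstream. WT wound fibroblasts had 3, up to 26.5, and SG 1, of 27.4 at 1.48 kb inside. A summit within 1 kb of the 5′ end was present in 3 of the 4 deleted lists, but none of these lay within 500 bp of a WT summit of its type. The WT summit 7.58 kb upstream in MEF had no counterpart in either deleted MEF list, and in tumour fibroblasts the upstream summit, 20.4 in WT and 8.74 in SG, was the one with a counterpart within 500 bp. No summit lay within 1 kb of the start of Stambpl1, the other gene that starts in this window.

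**Figure D3:**
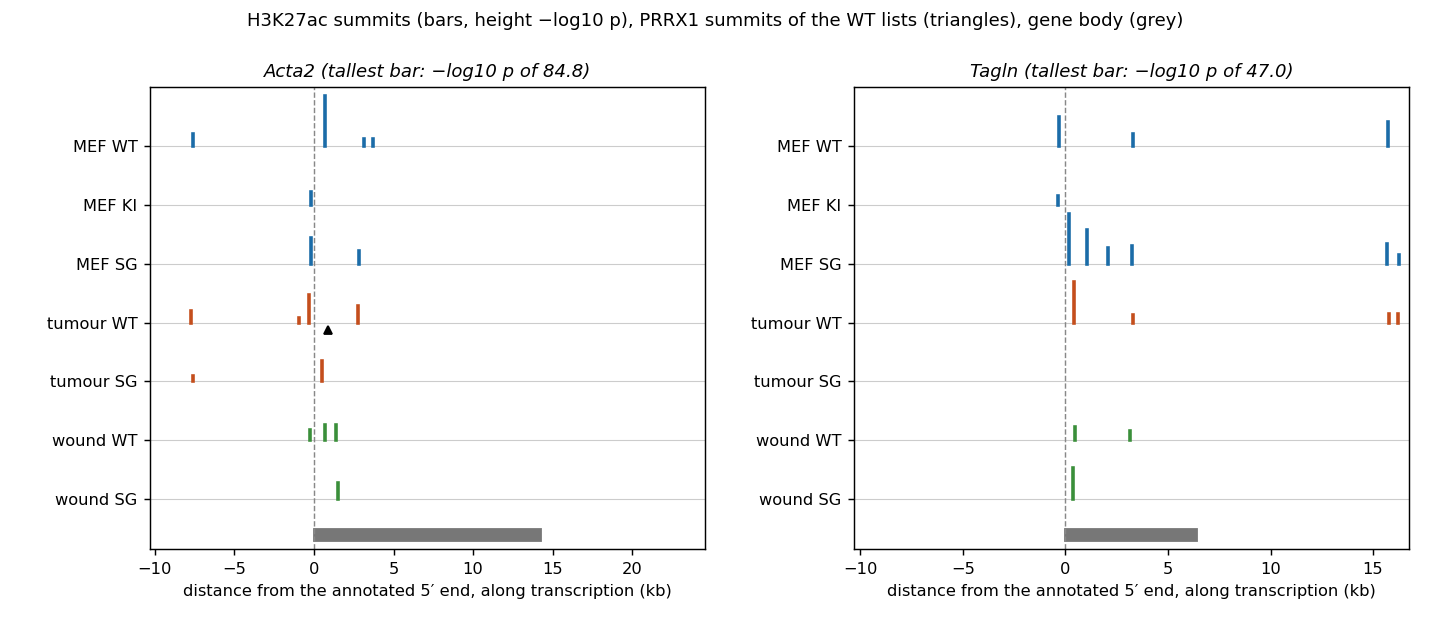
H3K27ac summits at Acta2 (left) and Tagln (right) in the 7 lists, by distance in kb from the annotated 5′ end along transcription (x axis), with bar height in proportion to −log10 p, the gene body in grey and PRRX1 summits as triangles under the WT lists. Acta2 went from 4 summits to 1 and 2 in MEF, 4 to 2 in tumour fibroblasts and 3 to 1 in wound fibroblasts, and Tagln from 4 to 0 in tumour fibroblasts.

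Tagln did not follow Acta2 in all types. Its sums were 61.4 in WT MEF, 8.47 in KI and 137 in SG, 60.6 in WT and 0 in SG tumour fibroblasts, and 21.7 in WT and 29.7 in SG wound fibroblasts. It was thus lower in MEF KI and tumour SG, higher in MEF SG and neither in wound SG. In tumour fibroblasts, WT had 4 summits, the highest 38.3 at 0.42 kb inside the gene, and SG listed none above the cutoff of 5. With a sum of 0, the log2 ratio rests on the 5 added and is neither a fold nor a bound. In MEF SG the highest summit (47.0) lay 0.18 kb inside and the number was 6 against 3 in WT.

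Of the other members, Myl9 was lower in KI and tumour SG (log2 ratios -0.74 in both) and near its WT list in MEF SG (0.01), with 0.41 in wound SG. Cnn1 was the one member never called lower, with log2 ratios of -0.42 in KI, 0.51 in MEF SG, 0.73 in tumour SG and 1.04 in wound SG. Much of its sum lay away from its own start. In 4 of 7 lists, its highest summit was 17.6 to 17.7 kb from the 5′ end, and one was 18.2 kb from it in tumour SG, beyond the gene's other end, and 12 of its summits over the 7 lists lay within 1 kb of a start of the neighbouring gene Elof1. Tpm1 ranged from -0.83 in KI to 0.75 in MEF SG, and Tpm2 from -1.49 in KI to 0.74 in tumour SG. Actn1 was lower in KI (-0.79) and in tumour SG (-0.60), Vcl lower in KI (-1.40) and higher in wound SG (0.99), and Cald1 lower in KI (-1.41) and higher in wound SG (0.59). Relative to the median of all genes, none of these calls at Vcl and Cald1 remained (0.22 in KI and 0.40 in wound SG at Vcl, and 0.21 in KI and at the median in wound SG at Cald1).

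Counted over the list, 9 of 10 members were lower in KI and 0 higher, against 89.5% and 2.93% of all genes, a share near the background. The members' median log2 ratio in KI was -1.12, above the median of all genes, and 8 of 10 lay above it. In MEF SG, 1 member was lower (Acta2) and 2 higher (Tagln and Tpm1), against 5.7% and 41.6% of all genes. In tumour SG, 4 were lower (Acta2, Tagln, Myl9 and Actn1) and 2 higher (Cnn1 and Tpm2), against 8.81% and 28.8%. In wound SG, 1 was lower (Acta2) and 3 higher (Cnn1, Vcl and Cald1), against 3.05% and 50.3%. In the 3 SG comparisons the members' medians were 0.22, -0.39 and 0.39, each below the median of all genes, and 7, 7 and 8 of the 10 members lay below it. Relative to that median the counts were different. In KI, 2 members were lower (Acta2 and Tagln) and 5 higher (Cnn1, Myl9, Tpm1, Actn1 and Myh9), against 24.1% and 22.3% of all genes. In MEF SG, 2 were lower (Acta2 and Cald1) and 1 higher (Tagln), against 14.7% and 14.4%. In tumour SG, 5 were lower (Acta2, Tagln, Myl9, Actn1 and Myh9) and 0 higher, against 14.9% and 18.9%, and in wound SG, 3 were lower (Acta2, Tpm1 and Myh9) and 0 higher, against 13.8% and 18.8%. Of the 7 higher calls in the SG lists, 1 thus remained, Tagln in MEF SG.

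**Figure D4:**
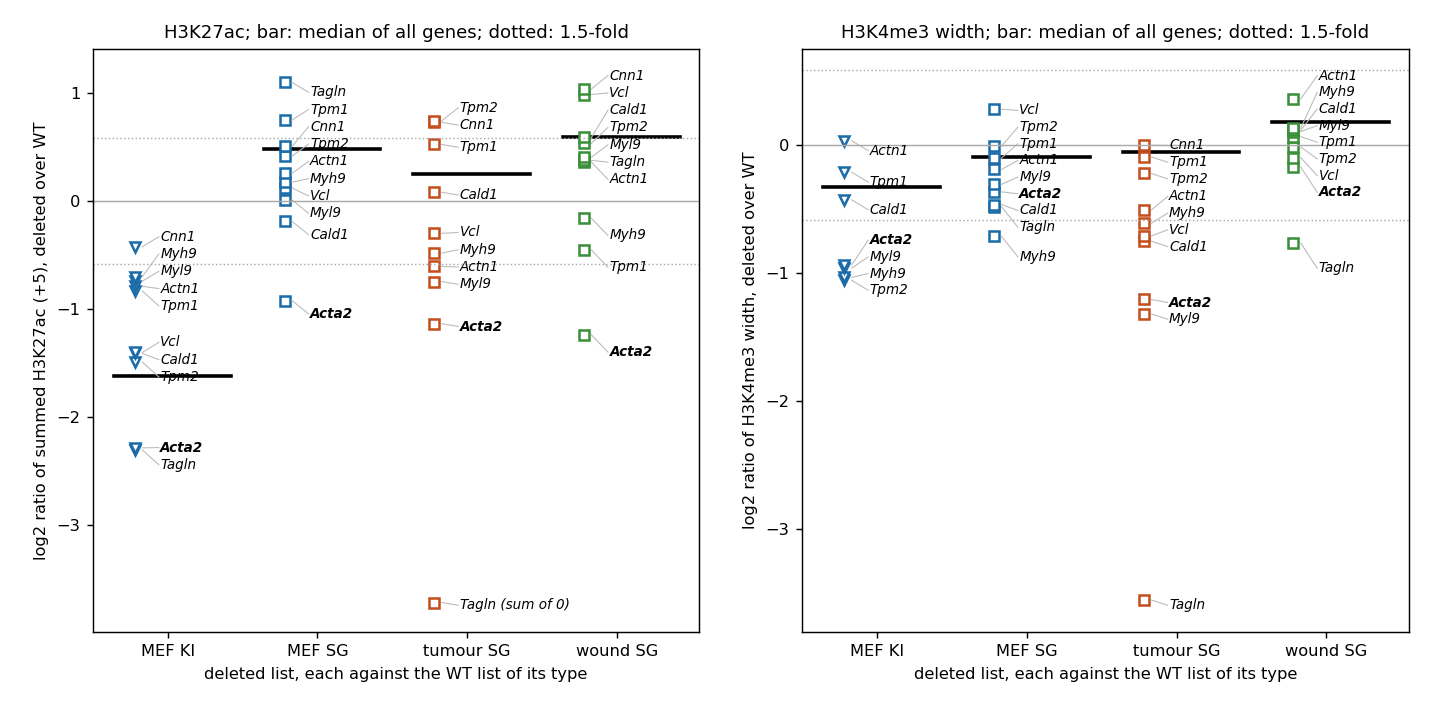
Log2 ratio of deleted over WT (y axes) of summed H3K27ac (left, 5 added to each sum) and of H3K4me3 width (right, genes with a region in both lists) for each member, by deleted list (x axis), with a black bar at the median of all genes and dotted lines at 1.5-fold. Acta2 (bold) lay below the bar in all 4 lists on both sides, and Tagln in tumour SG was the lowest point on both sides, at -3.55 in width and, in H3K27ac, at a position set by the 5 added to a sum of 0.

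The median log2 ratio of the members, less that of all genes, was 0.50 in KI, -0.26 in MEF SG, -0.64 in tumour SG and -0.20 in wound SG, and that of the wider actomyosin and Srf list was 0.25, -0.36, -0.15 and -0.14. Of the 31 genes of the wider list with a summit, 28 were lower in KI and 0 higher, a share near the background, 2 and 2 in MEF SG, 2 and 6 in tumour SG, and 0 and 12 in wound SG. Relative to the median of all genes they were 0 and 9 in KI, 10 and 0 in MEF SG, 5 and 3 in tumour SG, and 5 and 4 in wound SG. Mylk, the kinase that phosphorylates myosin light chains, was among the lowest in MEF SG (316 in WT and 116 in SG, log2 ratio -1.41) and in tumour SG (193 and 87.3, -1.10), but in wound fibroblasts it held 8.35 in WT and 31.1 in SG. Pdlim5, a PDZ and LIM protein of actin fibres, was low in MEF SG (-0.83) and the second highest in wound SG (1.48). Myocd, the coactivator of smooth muscle, held at most 2 summits in any list.

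The remaining genes named by the rule for this list were the extremes of each comparison. In KI the lowest were Smtn (-2.15) and Cnn3 (-2.05) and the highest Synpo2 (-0.52) and Mkl2 (-0.38). Tagln2 and Lmod1 were highest in MEF SG (0.60 and 0.69) and in tumour SG (1.01 and 0.90), and Myl12b and Pdlim7 lowest in wound SG (-0.31 and -0.16). Srf held 156 in WT MEF, 59.4 in KI and 170 in SG, 101 and 77.4 in WT and SG tumour fibroblasts, and 109 and 111 in WT and SG wound fibroblasts. Its coactivator gene Mkl1 held 698, 373 and 642 in WT, KI and SG MEF, 743 and 791 in WT and SG tumour fibroblasts, and 368 and 509 in WT and SG wound fibroblasts. Neither was lower past 1.5-fold in an SG list as deposited, but relative to the median of all genes Srf was lower in tumour SG (-0.61) and Mkl1 in MEF SG (-0.60). The other coactivator gene, Mkl2, lay at -0.84 on that scale in MEF SG (-0.36 as deposited). In wound SG it was higher as deposited (0.82), but not past 1.5-fold relative to the median (0.23).

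The share of WT H3K27ac summits at members with a summit within 500 bp in another list was also counted. It was 47 of 105 (44.8%, Wilson 95% interval 35.6 to 54.3%, counting error only) in KI and 67 of 105 (63.8%, 54.3 to 72.4%) in MEF SG, 75 of 141 (53.2%, 45.0 to 61.2%) in tumour SG and 54 of 120 (45.0%, 36.4 to 53.9%) in wound SG. Over the windows of all protein-coding genes the shares were 50.4, 73.6, 67.8 and 68.9%. Of these 4 values over all genes, that of KI lay inside the members' interval. Most member summits came from few genes. Cald1 and Myh9 held 40 and 19 of the 105 WT summits in MEF. In tumour fibroblasts they held 48 and 32 of the 141, and in wound fibroblasts 42 and 31 of the 120. The intervals treat summits as independent, which those of 1 gene need not be, so they do not serve as a test. Between unedited lines the members' share was below that of all genes in 5 of 6 readings, and in 3 of the 6 the value of all genes lay inside the members' interval. Of the 120 wound WT summits, 58 (48.3%, 39.6 to 57.2%) had one in WT MEF, against 71.6% over all genes, and 66 (55.0%, 46.1 to 63.6%) in WT tumour fibroblasts, against 69.1%. Of the 141 in WT tumour fibroblasts, 66 (46.8%, 38.8 to 55.0%) had one in WT MEF, against 55.4%, and 69 (48.9%, 40.8 to 57.1%) in WT wound fibroblasts, against 48.8%. Of the 105 in WT MEF, 66 (62.9%, 53.3 to 71.5%) had one in WT tumour fibroblasts, against 68.7%, and 57 (54.3%, 44.8 to 63.5%) in WT wound fibroblasts, against 62.8%. Single genes differed widely. At Acta2, 0 of 4 WT summits had one in KI, and 1 of 4 in MEF SG, 1 of 4 in tumour SG and 1 of 3 in wound SG, while at Tpm1 it was 7 of 8 in MEF SG and 11 of 14 in tumour SG.

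Between the WT lists themselves, the members mostly moved with the whole list. WT tumour fibroblasts was wider than WT MEF in H3K4me3 at 9 of 9 members with a region in both, with a median log2 ratio of 0.41, and the median of all genes was 0.40. Summed H3K27ac was higher in WT tumour fibroblasts than in WT wound fibroblasts at 10 of 10 members, with a median of 0.83 against 0.86 for all genes, and lower in WT wound fibroblasts than in WT MEF at 7 of 10, with -0.73 against -0.54. Against that shift, the Acta2 region was wide in MEF and tumour fibroblasts and narrow in wound fibroblasts, with a log2 width ratio of wound to MEF of -0.95. Vcl went apart in the other mark, with 207 in WT MEF, 240 in WT tumour fibroblasts and 69.3 in WT wound fibroblasts.

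PRRX1 summits at the members were counted list by list, beside the share of all genes in the same list. A summit lay in the window of 1 of 10 members in WT MEF (Vcl), against 7.06% of all genes, of 4 in WT tumour fibroblasts (Acta2, Cnn1, Myh9 and Cald1), against 22.1%, and of 3 in WT wound fibroblasts (Actn1, Myh9 and Cald1), against 16.8%. There were 1, 11 and 6 summits, or 0.137, 1.51 and 0.823 per 100 kb over 729 kb of windows in all, against 0.134, 0.514 and 0.361 over all genes' windows. Of the 11 in tumour fibroblasts, 7 lay at Myh9. Tagln, Myl9, Tpm1 and Tpm2 had none in any list. Of the wider list of 33 genes, 6, 20 and 16 had a summit in MEF, tumour fibroblasts and wound fibroblasts.

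The summits at members ranged widely in strength within their lists. The Acta2 summit in WT tumour fibroblasts had a −log10 p of 6.64, rank 4241 of 8000, and lay 0.89 kb inside the gene under H3K4me3 in all 7 lists. It had no H3K27ac summit within 500 bp in the same WT list, but did in WT MEF, SG tumour fibroblasts and WT wound fibroblasts. The strongest by rank was at Actn1 in WT wound fibroblasts, 18.7, rank 186 of 5698, in an intron 29.8 kb from the 5′ end, with H3K27ac within 500 bp in the same list. The Cnn1 summit (12.5, rank 909 of 8000) lay 156 bp from a start of Elof1 and 18023 bp from that of Cnn1.

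At Myh9 and Cald1, PRRX1 summits lay near the start in both tumour fibroblasts and wound fibroblasts. At Myh9 they were 531 bp (−log10 p of 13.9, rank 739 of 8000) and 328 bp (5.39) upstream of the 5′ end, and at Cald1 44 bp (8.05) and 302 bp (6.32) upstream. These were the only member summits with one of another type's list within 500 bp. The other Myh9 summits of tumour fibroblasts lay 2.39 kb and 35.3 to 43.3 kb inside the gene, and the other Cald1 summits of wound fibroblasts 116 to 123 kb inside it. At Vcl the MEF summit (6.61) lay 50.3 kb inside an intron, with no H3K27ac within 500 bp and no H3K4me3 in any list.

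**Figure D5:**
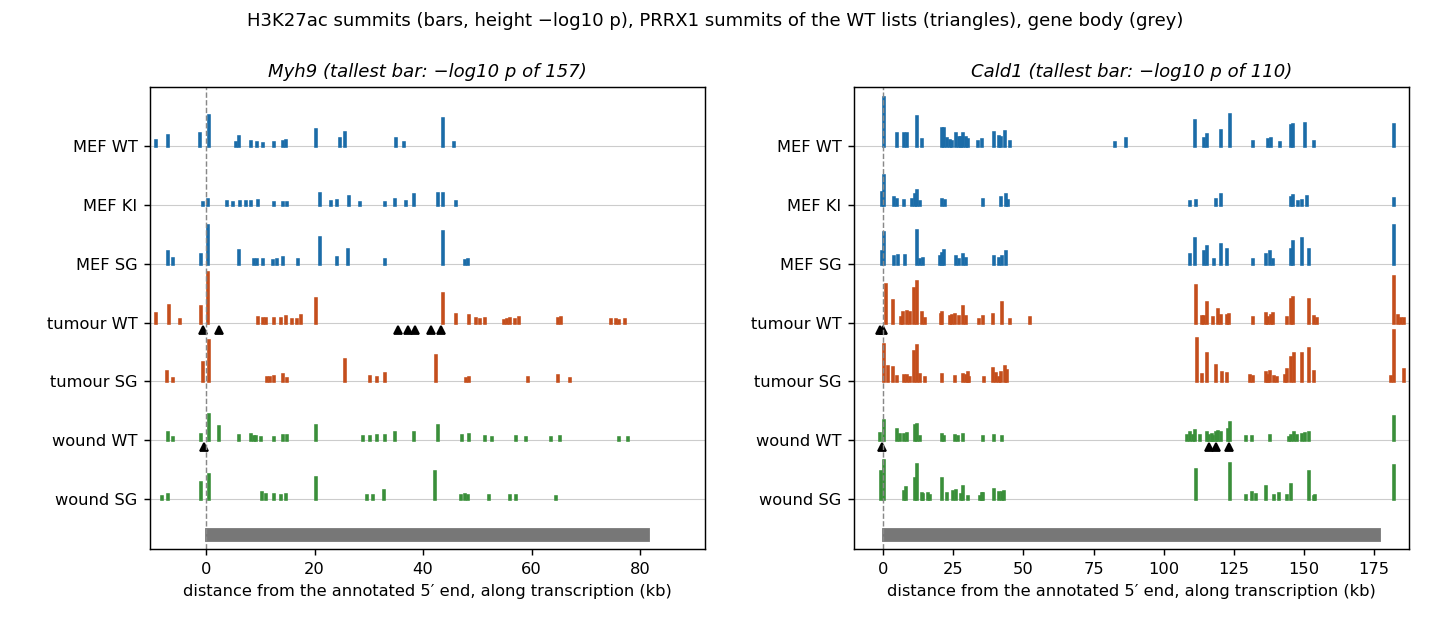
H3K27ac summits (bars, height in proportion to −log10 p) and PRRX1 summits of the WT lists (triangles) at Myh9 (left) and Cald1 (right), by distance in kb from the annotated 5′ end along transcription (x axis), for the 7 lists. PRRX1 summits sat at both starts in tumour fibroblasts and wound fibroblasts, with 5 further ones between 35.3 and 43.3 kb inside Myh9 in tumour fibroblasts and 3 between 116 and 123 kb inside Cald1 in wound fibroblasts.

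The 61 bases around 4 of these summits are shown, since they place PRRX1 at the gene with the clearest H3K27ac difference, at the starts it shared between types and at its sole MEF site. They are written 5′ to 3′ along the gene on mm9, with TAATTA in capitals where it occurs.
Acta2, tumour fibroblasts (chr19:34328905-34328965, minus strand, inside the gene): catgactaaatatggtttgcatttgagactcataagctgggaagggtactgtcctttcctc
Myh9, tumour fibroblasts (chr15:77673106-77673166, minus strand, upstream): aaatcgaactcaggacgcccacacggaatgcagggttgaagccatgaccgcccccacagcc
Cald1, tumour fibroblasts (chr6:34548426-34548486, plus strand, upstream): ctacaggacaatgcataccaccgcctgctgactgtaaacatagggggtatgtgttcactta
Vcl, MEF (chr14:21798965-21799025, plus strand, intron): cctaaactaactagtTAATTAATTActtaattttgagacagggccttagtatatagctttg

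TAATTA on either strand was found within 100 bp of 5 of the 18 summits at members, 1 of 1 in MEF, 4 of 11 in tumour fibroblasts and 0 of 6 in wound fibroblasts. Over all summits of the same lists it was 69.1, 35.5 and 41.9%. Of the 18, 12 lay under H3K4me3 and 7 within 500 bp of an H3K27ac summit of the same WT cells. Of the 4 members with a PRRX1 summit in tumour fibroblasts, 3 had narrower H3K4me3 in tumour SG (Acta2, Myh9 and Cald1) and 1 had lower H3K27ac (Acta2). Of the 6 without one, 3 had narrower H3K4me3 (Tagln, Myl9 and Vcl) and 3 lower H3K27ac (Tagln, Myl9 and Actn1). Whether these counts differ was not tested. PRRX1 lists of deleted cells were not analysed here.

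The 5 genes whose summed H3K27ac over the 7 lists was most like that of Acta2, by Pearson correlation of log2 sums (5 added) among 12540 genes with a sum above 0 in at least 6 lists, were Pik3r3 (0.96), Alg14 (0.94) and Idh3g, Srpk3 and Ssr4 (0.93 each). The last 3 have the same sums in every list. The 7 lists share types and differ in strength, so that such values describe these lists only. Of the other members, Myh9 (0.74), Myl9 (0.66) and Tagln (0.55) were most like Acta2, and Cnn1 (0.05) least.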

How the data were processed

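ChIP-seq peak lists of 17 of 24 samples were used; the 7 inputs have no list here. The authors used Trimmomatic for trimming, Bowtie for alignment to mm9 and MACS2 for peaks, with duplicates removed and the matching input as control. Per H3K27ac or PRRX1 summit, the deposited lists give 1 position and its −log10 p-value. Per H3K4me3 region, the deposited lists give its bounds, fold enrichment (a ratio), a −log10 p, a −log10 q and a display score, which was not used. The methods give a cutoff that equals a −log10 p of 5 for sharp peaks, which the H3K27ac lists keep to and the PRRX1 lists do not. Whether the PRRX1 lists pool duplicate ChIPs is not stated. Read depth is unknown, and precision is limited to 1 list per group.

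Genes and sequences came from GENCODE vM1 and NCBIM37, which is mm9. Members, lists and rules were chosen with earlier results of these data known. A gene's H3K27ac value was the sum of −log10 p over summits in the body with 10 kb each side, compared as a log2 ratio after adding 5. Its H3K4me3 value was the widest region over any annotated TSS. A change past 1.5-fold was called. All protein-coding genes gave the background, and no p-value was computed. Named genes were the 10 members, Prrx1, Myh11, Myocd, Des, Lmod1, Srf, Mkl1, Mkl2, the 2 lowest and 2 highest genes of the wider list in each comparison, and the 5 most like Acta2. Of 34 genes on that list, 1 was not on the annotation. The code of the calls was run on simulated lists with fixed changes and no noise between them. Such a run checks the arithmetic and says nothing of lists that differ in depth or strength. Python 3.11.15, numpy 2.4.6, pysam 0.24.0 and matplotlib 3.10.9 were used. Alternatives were the window, a stricter −log10 p, equal list sizes, centring, pseudocount, thresholds and distances.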

Additional observations from a re-analysis of the deposited data

Results flagged for a closer look

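Tagln was the one member whose SG comparison went opposite ways in different fibroblast types past 1.5-fold. The log2 ratio of summed H3K27ac, SG over WT, was 1.10 in MEF and -3.71 in tumour fibroblasts, where the SG list held no summit in the window so that the value rests on the 5 added to each sum and is neither a fold nor a bound. This difference was not tested, since each group has 1 list.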

How the results depend on the processing

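There were 22 counts or shares and 119 values under alternatives, of which 77 stayed within 1.5 times the reported count or inside the interval of the reported share and 42 did not. The cause was not tested. No paired analysis was possible because each group has 1 list and the labels give no replicate numbers. Nor was any list left out. Shares of all genes were computed for the reported settings and, for H3K27ac, for centring. Under the other alternatives only the members were counted, so those values cannot be set beside a background.

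Members with lower H3K27ac numbered 9 (MEF KI), 1 (MEF SG), 4 (tumour SG) and 1 (wound SG). Relative to the median of all genes they were 2 in KI, 2 in MEF SG and 3 in wound SG, and members with higher H3K27ac, 0, 2, 2 and 3 as deposited, were 5, 1, 0 and 0 (the latter added after seeing the data). Members with lower H3K27ac by the number of summits, also with 5 added, were 3 in KI, 0 in MEF SG and 2 in tumour SG. At 2-fold they were 5 in KI, 0 in MEF SG and 2 in tumour SG. With 50 kb each side they were 0 in MEF SG, 1 in tumour SG and 0 in wound SG, with the gene body alone 2 in tumour SG, and with lists of equal size 2 in wound SG. Acta2 stayed lower in all 4 comparisons under 5 of 9 alternatives (−log10 p of at least 10, equal list size, pseudocount of 1, centring, and summits at other genes' starts left out, the last added after seeing the data), in 3 of 4 with the gene body alone or at 2-fold, and in 1 of 4 with 50 kb each side. By number of summits it was called in 1 of 4, but with 5 added a step from 4 summits to 2, or from 3 to 1, cannot pass 1.5-fold, so this alternative says nothing of genes with so few summits.

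Members with narrower H3K4me3 numbered 4, 1, 6 and 1. By fold enrichment in place of width they were 2, 0, 1 and 0, and at 2-fold 2, 0, 3 and 0. With −log10 p of at least 10 they were 2 in KI and 0 in wound SG, with lists of equal size 0 in wound SG, and with regions within 1 kb of the TSS 2 in MEF SG and 2 in wound SG. Broad regions over 5 kb covered 1 member in MEF KI and 2 in MEF SG.

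Members with a PRRX1 summit numbered 1 (MEF), 4 (tumour) and 3 (wound). With 50 kb each side they were 3, 7 and 6, and with −log10 p of at least 10 they were 0, 2 and 1. A wider window can only raise such a count for any set of genes, and the share of all genes at 50 kb was not computed. With the gene body alone there were 2 in tumour. Shares of WT summits with one within 1 kb were 63.8% (KI), 81.9% (MEF SG), 65.2% (tumour SG) and 65.8% (wound SG), and with lists of equal size 55.4% in KI and 44.4% in tumour SG.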
